A study of Oncorhynchus mykiss with 70 samples.

Results

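The distal intestine and the pyloric caeca of rainbow trout (Oncorhynchus mykiss) were compared for the expression of 49 genes of the activin receptor pathway. The samples were those titled Distal Intestine (3 samples) and Pyloric Caeca (3 samples), 6 of the 70 samples of a survey of 23 adult tissues, and all 49 pathway genes of the code set were measured in each. RNA was counted with a custom NanoString code set, in which each target is bound by a probe of its own and the colour barcodes are counted without amplification. Of its 66 probes, 49 read pathway genes, 3 read the reference genes actb, ef1a and tbp, 6 were positive controls and 8 were negative controls. Both groups are labelled as male fish from the clonal Swanson and Oregon State University lines, raised for 2 to 3 years in recirculating systems and left untreated. The labels do not say which line a sample came from, or whether the segments came from the same fish. The design text calls the replicates biological, and no cartridge, run or extraction batch is given. The code set holds no marker of gut epithelium, pancreas, fat or muscle, so the labelled segments could not be checked against their defining genes. In whole tissue, fewer cells of a type and less RNA per cell cannot be told apart.

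Activins, myostatin and Gdf11 are ligands of the transforming growth factor beta family. They bind a type II receptor, which then activates a type I receptor, and the type I receptor phosphorylates Smad proteins that move to the nucleus with a common Smad. Inhibitory Smads, extracellular binding proteins such as follistatin, and the decoy receptor Bambi, which resembles a type I receptor but lacks its kinase, limit the signal. The pyloric caeca are blind, fingerlike outpockets behind the stomach of many bony fish and add absorptive surface to the gut, while the distal intestine is the last absorptive segment before the vent. Salmonid fish carry many of these genes as duplicates from an ancient genome duplication, and the last digit of a symbol separates the copies.

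Telling the copies apart rests on the probe targets, so those of the genes on which the results turn are given here, 5′ to 3′, as the authors listed them. Capitals mark the longest run of bases that the targets of a pair share, and a target is shown whole or as a stretch of 30 bases around that run. In each of these 4 pairs the shared run was 6 bases long. Targets were compared only with each other. No transcript sequences were at hand, so whether a probe also binds the transcript of the other copy was not tested.
acvr1ab1 (chromosome 18, bases 71 to 100 of the target): aggagcgatagaaagaaGGCAGGgaagtag
acvr1ab2 (chromosome 7, bases 1 to 100): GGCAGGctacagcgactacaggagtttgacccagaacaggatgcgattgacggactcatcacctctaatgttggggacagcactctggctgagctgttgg
bambia1 (chromosome 11, bases 1 to 100): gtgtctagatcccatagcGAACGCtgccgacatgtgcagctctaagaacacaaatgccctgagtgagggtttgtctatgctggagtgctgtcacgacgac
bambia2 (chromosome 15, bases 6 to 35): gaggacagaattGAACGCaagccttgtggt
gdf11b1 (chromosome 17, bases 71 to 100): cataacagctcaggtGACCTCaatatcaac
gdf11b2 (chromosome 7, bases 64 to 93): aaccctgactgaGACCTCctctggcagcag
acvr1bb1 (chromosome 17, bases 1 to 100): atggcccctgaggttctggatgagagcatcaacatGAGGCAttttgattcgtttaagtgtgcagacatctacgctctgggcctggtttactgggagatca
acvr1bb2 (chromosome 7, bases 18 to 47): attgcccacttaGAGGCAggaatggtccat

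The total count was 217433, 166579 and 173173 in the Distal Intestine samples, against 257484, 269554 and 161778 in the Pyloric Caeca samples. Pathway genes held 7565, 5495 and 4704 of those counts in Distal Intestine, against 12816, 10159 and 3765 in Pyloric Caeca. Each count was divided by the geometric mean of its sample's 3 reference genes, expressed relative to the average of the 70 samples, and is called a scaled count below. That divisor was 2.96, 2.17 and 2.31 in Distal Intestine, against 3.98, 3.94 and 2.41 in Pyloric Caeca. With a limit set 2 SD above the mean of the negative controls, 30 of the 49 genes were above it in all 3 Distal Intestine samples, 33 in all 3 Pyloric Caeca samples, and 35 in all samples of at least 1 segment.

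Between the segments the type I receptor pair acvr1ab stood out, with both copies lower in distal intestine than in pyloric caeca, and the decoy receptor gene bambia1 was higher in distal intestine. These 3 genes, 6.12% of the 49, passed edgeR's quasi-likelihood test at an adjusted p of 0.05, 1 higher (2.04%) and 2 lower (4.08%). Before adjustment, 10 genes had a p under 0.05. The median difference over all 49 genes was 0.33 on the log2 scale, with 30 genes above 0 and 19 below, and it moved with the scaling, between -0.12 by the positive controls and 0.70 by ef1a alone. The split of calls was 4 higher against 4 lower when scaled by all pathway genes, by TMM or by DESeq2 size factors, 7 against 2 by ef1a alone, 3 against 2 by ef1a with tbp, and 0 against 2 by actb alone, tbp alone or the positive controls. The scaled counts of the segments did not overlap for 13 genes (26.5%), of which 10 lay above in Distal Intestine (20.4%) and 3 below (6.12%). An exact permutation test of 3 against 3 samples cannot give a p below 0.1.

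**Figure D1:**
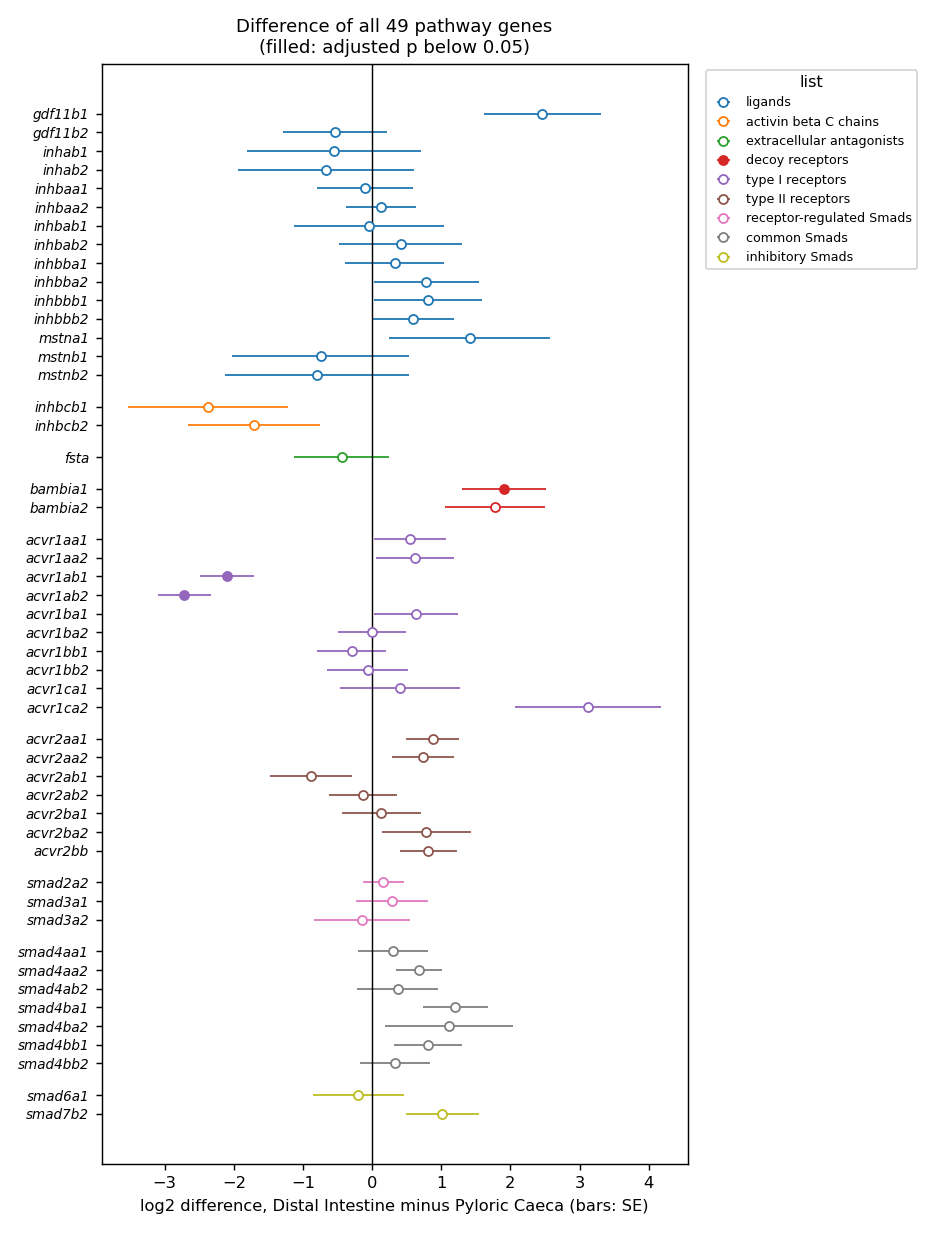
Difference between the segments for each of the 49 pathway genes, Distal Intestine minus Pyloric Caeca on the log2 scale (x axis), grouped by role (y axis); bars are the standard errors of the edgeR fit. Both acvr1ab copies lie left of 0, at -2.72 and -2.10, and bambia1 lies right of it at 1.91, while acvr1ca2 and gdf11b1 lie further right without passing the test.

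Type I receptors carry the serine/threonine kinase that phosphorylates Smads. The acvr1ab copies correspond to the receptor known in mammals as ALK2, which binds several ligands of the family and relays bone morphogenetic protein signals. The scaled count of acvr1ab2 (LOC110528876) was 90.2, 89.1 and 73.1 in Distal Intestine, against 824, 545 and 293 in Pyloric Caeca. All 3 distal samples lay far below the lowest caecal one, and the caecal samples varied widely among themselves. The means were 84.1 ± 9.57 in Distal Intestine and 554 ± 266 in Pyloric Caeca (SD, n = 3 each), a log2 difference of -2.72 ± 0.38 (SE), or 6.58-fold lower, with an edgeR adjusted p of 1.49e-07.

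Its duplicate acvr1ab1 (LOC110495748) showed the same pattern at a lower count, with scaled counts of 38.5, 31.8 and 32.9 in Distal Intestine against 204, 148 and 90.3 in Pyloric Caeca. Again the groups did not overlap, and the distal samples lay close together. The means were 34.4 ± 3.59 in Distal Intestine and 147 ± 56.9 in Pyloric Caeca (SD, n = 3 each), a log2 difference of -2.10 ± 0.39 (SE), or 4.28-fold lower, with an edgeR adjusted p of 3.82e-05. Among the 23 tissues of the survey, Distal Intestine was at rank 21 and Pyloric Caeca at rank 5 for acvr1ab2, where rank 1 is the highest. Ranks here and below order the tissue means of log2 scaled counts with 10 added, and can differ from the order of plain means. For acvr1ab1 the ranks were 20 and 7. The median of the 14 other non-muscle tissues lay between the segments for both genes, at 151 for acvr1ab2 and 51.9 for acvr1ab1. Brain held the highest of those tissues at 662 and 225. Heart, Bulbus Arteriosus and Tongue were counted among the 14, since they are not titled skeletal or extraocular muscle. Both acvr1ab calls held in all 23 tested alternatives. With only the 6 samples fitted, the edgeR adjusted p was 0.000445 for acvr1ab2 and 0.00105 for acvr1ab1. The highest edgeR adjusted p over the alternatives was 0.0112 for acvr1ab2 and 0.0215 for acvr1ab1.

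**Figure D2:**
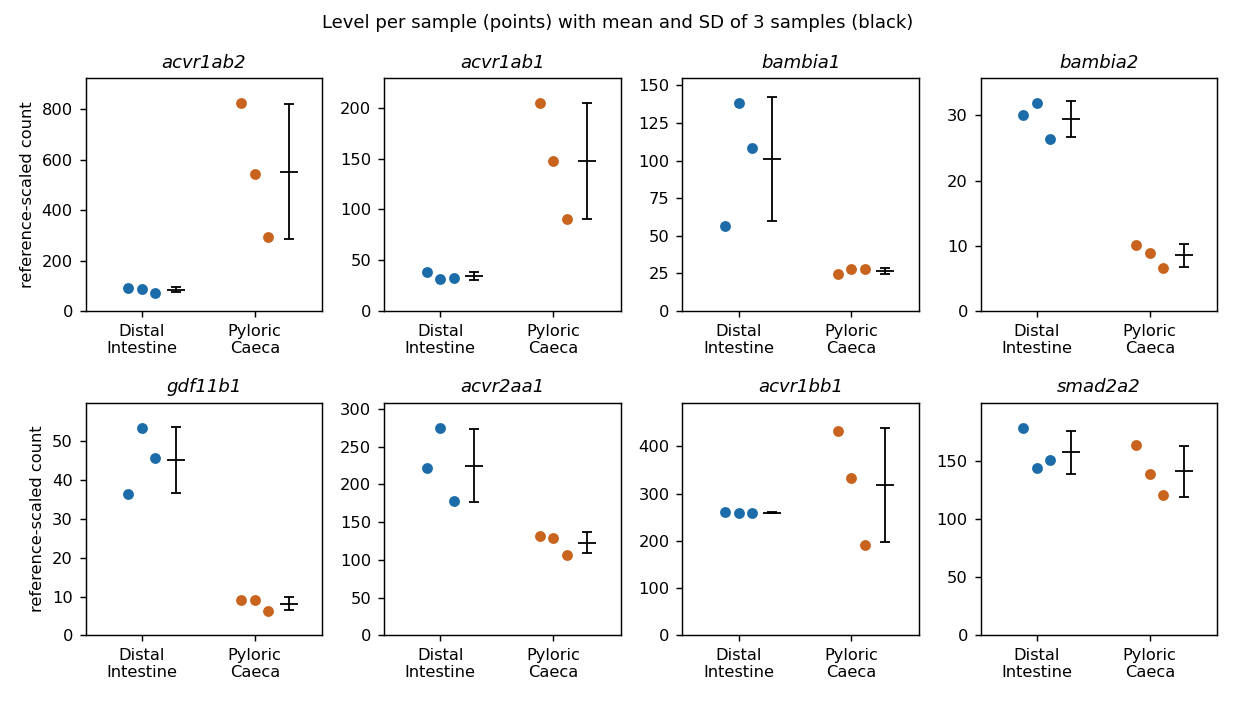
Scaled counts (counts divided by the 3 reference genes, y axis from 0) of selected genes in the 3 Distal Intestine and 3 Pyloric Caeca samples; points are samples and bars the mean and SD. The acvr1ab2 and acvr1ab1 samples of Distal Intestine lie below every Pyloric Caeca sample, and those of bambia1, bambia2 and gdf11b1 lie above.

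The other acvr1a copies did not pass the test. For acvr1aa1 the log2 difference was 0.54 ± 0.52 and for acvr1aa2 it was 0.62 ± 0.57 (SE, n = 3 samples each), both with an edgeR adjusted p of 0.625 and with overlapping samples. Counted as a share of all type I receptor counts in a sample, which needs no scaling, acvr1ab2 made up 10.2%, 7.40% and 8.32% in Distal Intestine, against 39.3%, 34.4% and 33.9% in Pyloric Caeca. The shares did not overlap, and they spread less among the caecal samples than the scaled counts did. Their means were 8.63% ± 1.42 in Distal Intestine and 35.9% ± 2.95 in Pyloric Caeca (SD, n = 3 each). Shares are of counts, and probes may bind with unequal efficiency, so they do not give the order of the genes in molecules.

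The 4 acvr1b genes encode the receptor known in mammals as ALK4, the usual type I partner of activins, and none of them passed the test between the segments. The scaled count of acvr1ba1 was 192, 475 and 236 in Distal Intestine, against 249, 210 and 120 in Pyloric Caeca. The ranges overlapped, with 1 distal sample well above the rest, and the log2 difference was 0.64 ± 0.61 (SE, edgeR adjusted p = 0.625). For acvr1bb1 the values were 261, 258 and 259 in Distal Intestine, against 432, 332 and 191 in Pyloric Caeca, so that the distal samples were nearly equal and lay inside the caecal range. Its log2 difference was -0.30 ± 0.50 (SE, edgeR adjusted p = 0.811), and 0.12 when scaled by ef1a alone. The smallest differences of the type I receptors were those of acvr1ba2, at -0.00 ± 0.49, and acvr1bb2, at -0.07 ± 0.59.

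As a share of type I receptor counts, acvr1ba1 held 29.3% ± 9.15 in Distal Intestine and 13.0% ± 1.06 in Pyloric Caeca (SD, n = 3 each). The larger acvr1ab2 share in Pyloric Caeca, 35.9% against 8.63%, leaves less of the same total there for other genes. The share alone therefore does not show a change of acvr1ba1 itself. All 10 type I probes together took 34.7%, 47.5% and 43.2% of pathway counts in Distal Intestine, against 65.1%, 61.4% and 55.3% in Pyloric Caeca. Every distal sample was below every caecal one. Over the list of 10 type I receptors, 0 genes were called higher and 2 lower in distal intestine by edgeR, and the median log2 difference was 0.20 beside 0.33 over all 49 genes.

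**Figure D3:**
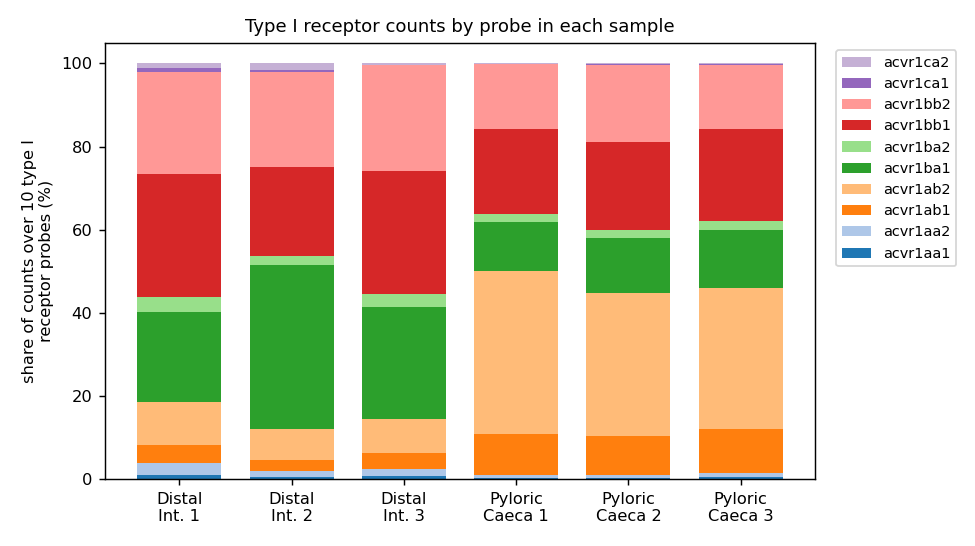
Share of the counts of the 10 type I receptor probes taken by each probe (y axis, percent) in the 3 Distal Intestine and the 3 Pyloric Caeca samples (x axis). The acvr1ab2 band averages 8.63% in Distal Intestine and 35.9% in Pyloric Caeca, and the acvr1ba1 band 29.3% and 13.0%. The bands of a sample share a total, so a larger acvr1ab2 band leaves less for the others.

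The acvr1c genes encode the receptor known in mammals as ALK7, and their counts were near the negative controls in both segments. The raw counts of acvr1ca2 were 28, 44 and 6 in Distal Intestine, against 4, 5 and 3 in Pyloric Caeca, and only 2 of the distal and 0 of the caecal samples were above the limit set by the negative controls. All distal counts exceeded the caecal ones, by little in 1 sample. The log2 difference was 3.12 ± 1.06 (SE), with an edgeR adjusted p of 0.0515, and 2.31 without Distal Intestine replicate 2. It was called in 11 of 23 tested alternatives, with differences between 0.24 and 6.70 and adjusted p from 0.00434 to 0.999. Its duplicate acvr1ca1 had raw counts of 23, 10 and 3 in Distal Intestine, against 15, 16 and 6 in Pyloric Caeca, and a log2 difference of 0.40 ± 0.87.

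Bambi joins receptor complexes without signalling, and its gene bambia1 (LOC100301651) had scaled counts of 56.4, 138 and 108 in Distal Intestine, against 24.4, 27.9 and 28.2 in Pyloric Caeca. The groups did not overlap, and the distal samples varied more than the caecal ones. The means were 101 ± 41.3 in Distal Intestine and 26.8 ± 2.11 in Pyloric Caeca (SD, n = 3 each), a log2 difference of 1.91 ± 0.61 (SE), or 3.75-fold higher, with an edgeR adjusted p of 0.0477. Pyloric Caeca ranked last of the 23 tissues for bambia1, and Distal Intestine was at rank 14. This call lies at the threshold: it held in 12 of 23 tested alternatives, with adjusted p from 0.00249 to 0.325, and was lost without Distal Intestine replicate 2 (adjusted p = 0.169), without Distal Intestine replicate 3 (0.0733) and without any 1 of the Pyloric Caeca replicates (0.178, 0.115 and 0.148).

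The second copy, bambia2 (LOC110490039), had scaled counts of 30.1, 31.8 and 26.4 in Distal Intestine, against 10.1, 8.88 and 6.63 in Pyloric Caeca. These groups too were apart. The log2 difference of 1.77 ± 0.72 (SE) was close to that of bambia1 but did not pass (edgeR adjusted p = 0.123). In 4 of the 8 other scalings bambia2 was called higher, against 5 for bambia1, and it was called with only the 6 samples. By edgeR 1 of the 2 decoy receptor genes was called higher, and the median of the list was 1.84. The share of bambi counts held by bambia1 was 75.6% ± 9.01 in Distal Intestine and 75.9% ± 5.07 in Pyloric Caeca (SD, n = 3 each).

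Gdf11 is a close relative of myostatin and signals through the same receptors. Its gene gdf11b1 (LOC110494206) had scaled counts of 36.5, 53.5 and 45.8 in Distal Intestine, against 9.05, 9.13 and 6.22 in Pyloric Caeca. Every distal sample was several times above every caecal one. The means were 45.3 ± 8.54 in Distal Intestine and 8.13 ± 1.66 in Pyloric Caeca (SD, n = 3 each), and the log2 difference of 2.46 ± 0.84 (SE) missed the threshold with an edgeR adjusted p of 0.0515. It was called in 10 of 23 tested alternatives. The adjusted p ran from 0.000445 (edgeR, only the 6 samples fitted) to 0.443 (limma, 50 added). Distal Intestine ranked 6 and Pyloric Caeca 22 of the 23 tissues, and the highest mean was in Cardiac Stomach, at 153.

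The duplicate gdf11b2 (LOC110528233) did not share that pattern, with scaled counts of 7.09, 8.31 and 6.49 in Distal Intestine against 19.9, 5.58 and 6.22 in Pyloric Caeca. Only Pyloric Caeca replicate 1 stood above the rest, and the log2 difference was -0.54 ± 0.75 (SE, edgeR adjusted p = 0.811). Without that replicate it was 0.30. Above the limit set by the negative controls were 1 of the Distal Intestine and all 3 Pyloric Caeca samples.

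Of the other ligands, mstna1, a myostatin gene, had scaled counts of 23.3, 19.8 and 22.9 in Distal Intestine, against 9.30, 9.89 and 5.39 in Pyloric Caeca. The groups did not overlap, yet the log2 difference of 1.41 ± 1.17 (SE) had an edgeR adjusted p of 0.599. That SE rests on a spread estimated over all 70 samples, not on these 6 alone. When only the 6 samples were fitted, mstna1 was called. The probe of mstna1 is listed by the authors as binding a pair of loci, so its count cannot be given to 1 gene. Among the 15 ligand genes 0 were called in either direction by edgeR, and the median log2 difference was 0.12. Ligands took 7.70% ± 0.64 of pathway counts in Distal Intestine and 4.57% ± 0.26 in Pyloric Caeca (SD, n = 3 each). Shares of pathway counts have a common total, and the type I receptor share was larger in Pyloric Caeca. How much of the ligand share difference this makes was not tested, so the share alone does not show a change of the ligand genes.

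The activin beta C chains form a separate branch of activin subunits, which in mammals are made mainly in the liver. The raw counts of inhbcb2 were 17, 10 and 8 in Distal Intestine, against 151, 11 and 12 in Pyloric Caeca. Replicate 1 alone was high among the caecal samples, and the log2 difference of -1.71 ± 0.95 (SE, edgeR adjusted p = 0.294) became 0.27 without it. The counts of inhbcb1 were 4, 1 and 2 in Distal Intestine, against 41, 9 and 6 in Pyloric Caeca, with a log2 difference of -2.37 ± 1.15 (SE, edgeR adjusted p = 0.217). The same caecal sample also had the highest count of inhab1, an inhibin alpha chain gene, at 67 against 5 and 11 in the other caecal samples.

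Type II receptors bind the ligand first, and none of the 7 genes passed edgeR's test. The one with the highest scaled counts, acvr2aa1, had scaled counts of 222, 275 and 178 in Distal Intestine, against 132, 129 and 107 in Pyloric Caeca. The distal samples were all above the caecal ones, with a log2 difference of 0.87 ± 0.38 (SE, edgeR adjusted p = 0.158). The median of the list was 0.74. At its low end, acvr2ab1 had scaled counts of 38.5, 20.8 and 21.2 in Distal Intestine, against 67.9, 61.9 and 19.1 in Pyloric Caeca. These overlapped, with a log2 difference of -0.89 ± 0.60 (SE, edgeR adjusted p = 0.437) that was called lower in 3 of the 8 other scalings. For acvr2ab2 the difference was -0.13 ± 0.50. Type II receptors took 19.6% ± 1.32 of pathway counts in Distal Intestine and 13.4% ± 1.33 in Pyloric Caeca (SD, n = 3 each). The type I receptor share of the same total was larger in Pyloric Caeca. How much of the type II share difference this makes was not tested, so the share alone does not show a change of these genes.

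Inside the cell, no Smad gene was called between the segments by edgeR. Of the receptor-regulated Smads, smad2a2 had scaled counts of 178, 144 and 150 in Distal Intestine, against 163, 139 and 120 in Pyloric Caeca, largely overlapping, with a log2 difference of 0.16 ± 0.30 (SE). That sign turned with the scaling, to between -0.27 and -0.08 in 5 of the 8 other scalings, and its probe is also listed as binding a pair of loci. The common Smad gene smad4aa2 had 128, 102 and 84.8 in Distal Intestine, against 62.1, 74.6 and 59.7 in Pyloric Caeca. Its groups did not overlap, and the log2 difference was 0.68 ± 0.33 (SE, edgeR adjusted p = 0.217). All 7 common Smad genes had positive differences under this scaling, with a median of 0.68, and 0 of them passed. The median was 0.31 with scaling by all pathway genes and 0.25 with the positive controls, and smad4aa1, smad4ab2 and smad4bb2 turned negative in at least 1 other scaling.

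The inhibitory Smads block the type I receptor or its substrates. For smad7b2 the scaled counts were 59.8, 19.4 and 30.7 in Distal Intestine, against 22.6, 18.8 and 12.8 in Pyloric Caeca, overlapping, with a log2 difference of 1.01 ± 0.53 (SE, edgeR adjusted p = 0.246), which was 0.46 without Distal Intestine replicate 1. For smad6a1 the difference was -0.20 ± 0.65. The gene of follistatin, fsta, an extracellular protein that binds activins and keeps them from their receptors, had 12.5, 7.85 and 8.65 in Distal Intestine, against 17.3, 12.2 and 9.95 in Pyloric Caeca. These overlapped, and the log2 difference was -0.44 ± 0.68.

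The balance between duplicate copies was compared as the log2 ratio of copy 1 to copy 2 within each sample, with 10 added to each count, which does not depend on the scaling. By limma, 3 of 21 pairs (14.3%) changed their ratio between the segments, 2 upward (9.52%) and 1 downward (4.76%). For gdf11b the ratio was 1.93, 2.17 and 2.21 in Distal Intestine, against -0.95, 0.52 and 0.00 in Pyloric Caeca. Copy 1 was well above copy 2 in every distal sample and near it or below in the caecal ones. The raw counts of copy 2 were 21, 18 and 15 in Distal Intestine. Only 1 of those samples was above the limit set by the negative controls, so the size of the distal ratio is uncertain. The difference was 2.25 ± 0.51 (SE), with a limma adjusted p of 0.00118.

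For acvr1ab the log2 ratio was -1.16, -1.36 and -1.06 in Distal Intestine, against -2.0, -1.87 and -1.65 in Pyloric Caeca. Copy 2 had more counts than copy 1 in every sample, and by more in the caeca. The difference was 0.65 ± 0.21 (SE), with a limma adjusted p of 0.0224. For acvr1ca it was -1.29 ± 0.39 (SE), with a limma adjusted p of 0.0187, but both copies lie near the negative controls there, as the raw counts above show. The gdf11b call held in all 13 tested alternatives. That of acvr1ab held in 5 of 13. It was lost without Distal Intestine replicate 1 (log2 difference 0.63) or 3 (0.58) and without Pyloric Caeca replicate 1 (0.57) or 2 (0.63). Adding 1 in place of 10 to each count also lost it. That of acvr1ca held in 5 of 12. It was lost without Distal Intestine replicate 2 (log2 difference -0.89) and without Pyloric Caeca replicate 1 (-1.19) or 2 (-1.21). Adding 50 in place of 10 also lost it. Both calls were lost with the negative controls subtracted, with only the 6 samples and with the replicate number as a block.

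**Figure D4:**
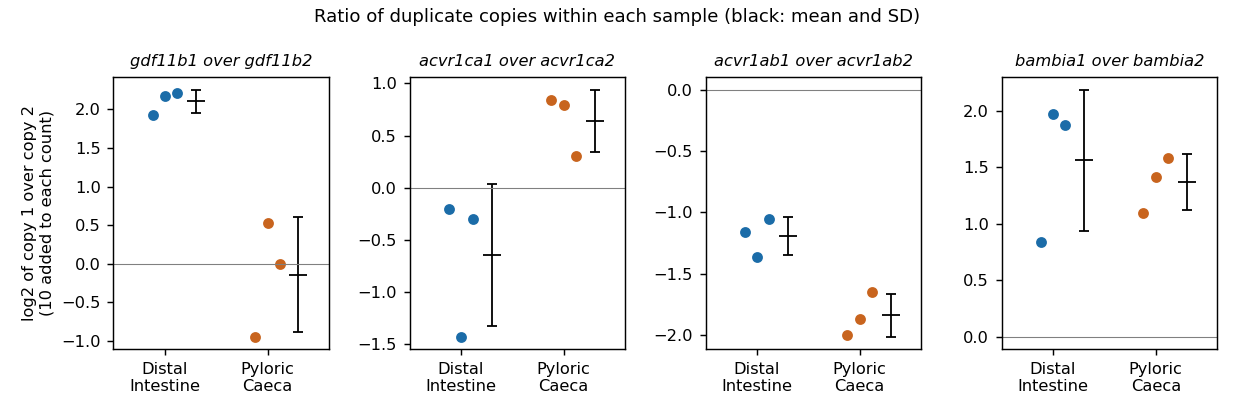
Log2 ratio of copy 1 to copy 2 (y axis, 10 added to each count) within each of the 3 Distal Intestine and 3 Pyloric Caeca samples for the gdf11b, acvr1ca, acvr1ab and bambia pairs; points are samples and bars the mean and SD. The gdf11b ratio averages 2.10 in Distal Intestine and -0.14 in Pyloric Caeca, while the bambia ratios of the segments overlap.

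Both segments together were then set against the 14 other non-muscle tissues (42 samples) in the same fit. The difference was the mean of the gut segments minus the mean of the other tissues. Cardiac Stomach, Heart, Bulbus Arteriosus, Tongue, Ovaries and Testes were among those 14. With Ovaries included, the male sex labelled for the gut segments does not hold for all 14. Of the 4 acvr1b receptor genes 3 stood high in these gut segments, while acvr1ba2 stood low under the main scaling. By edgeR 26 of the 49 genes (53.1%) were called, 3 higher (6.12%) and 23 lower (46.9%), with a median log2 difference of -0.84 over all genes. The reference genes weigh on this count: scaled by all pathway genes, the median was -0.18 and the split 12 higher against 15 lower, and by actb alone the median was -1.45 and the split 3 against 35. The split was 9 against 14 by tbp alone, 7 against 19 by ef1a with tbp, 6 against 5 by the positive controls, 9 against 17 by TMM and 13 against 14 by DESeq2 size factors.

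The 3 genes called higher were acvr1ba1, acvr1bb1 and acvr1bb2, and each was called higher under all 8 other scalings too. For acvr1bb1 the mean was 259 in Distal Intestine and 318 in Pyloric Caeca, above the highest of the 14 other tissues, Brain at 197, and the log2 difference was 2.17 ± 0.22 (SE, edgeR adjusted p = 1.29e-11). For acvr1ba1 Distal Intestine ranked 1 of the 23 tissues and Pyloric Caeca 3, with Ovaries, at 277, between them. Its gut mean was 247 against 65.7 ± 65.8 (SD over 14 tissues), 4.90-fold higher in the fit, with an edgeR adjusted p of 6.61e-10. For acvr1bb2 the difference was 1.77 ± 0.27 (SE, edgeR adjusted p = 6.38e-07), with Brain, at 242, level with the segments. Cardiac Stomach, a further part of the gut that is among the 14, averaged 26.3 for acvr1ba1, 133 for acvr1bb1 and 145 for acvr1bb2. Skeletal muscle is outside this comparison. Its highest mean, in Red Skeletal Muscle, was 314 for acvr1bb1 and 315 for acvr1bb2. The remaining copy, acvr1ba2, averaged 29.0 in the gut against 72.5 ± 45.8 (SD over 14 tissues), a log2 difference of -0.95 ± 0.28 (SE, edgeR adjusted p = 0.00366). Its difference was negative under all 8 other scalings, between -1.58 and -0.20, but it was called lower in only 3 of them.

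**Figure D5:**
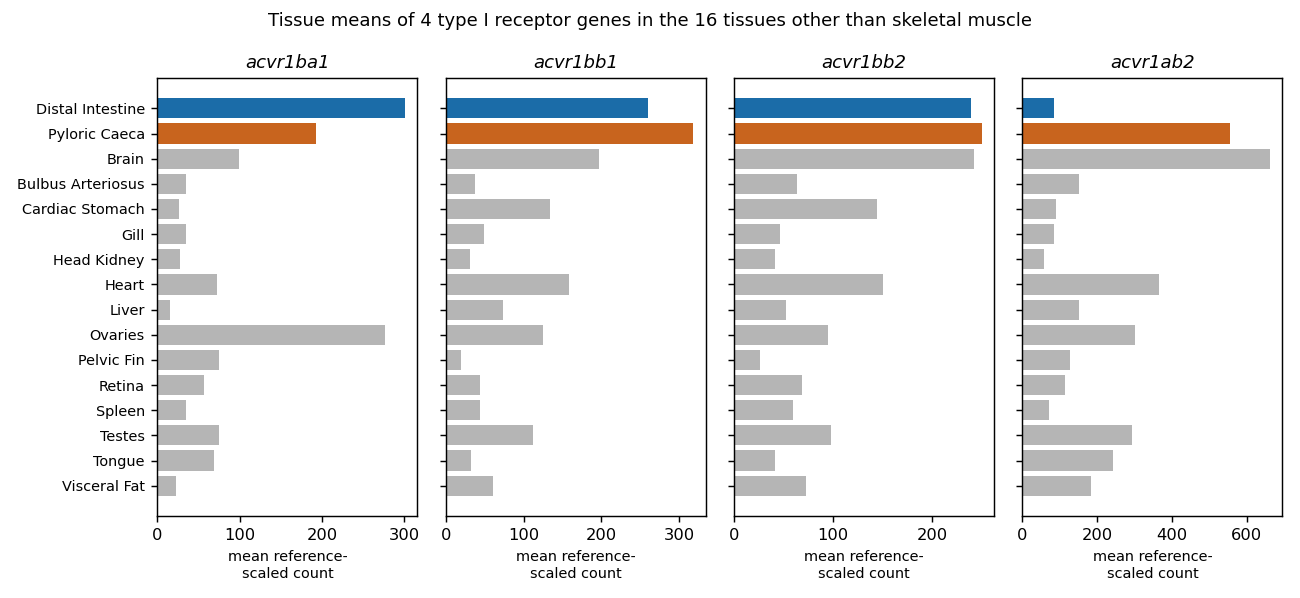
Mean scaled count (x axis from 0) of acvr1ba1, acvr1bb1, acvr1bb2 and acvr1ab2 in Distal Intestine, Pyloric Caeca and each of the 14 other non-muscle tissues (rows); bars are tissue means. Both segments lie at the top for acvr1bb1, at 259 and 318, while for acvr1ab2 Distal Intestine, at 84.1, lies near the bottom and Pyloric Caeca, at 554, near the top.

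The genes called lower in the gut included inhab2 and inhab1, which encode inhibin alpha chains, inhbab1, an activin beta A chain, mstnb1, a myostatin, and acvr1ca1, an ALK7 receptor. Ovaries and Testes averaged 1694 and 888 for inhab2 and 2170 and 1156 for inhab1, against medians of 13.8 and 18.6 over the 14 tissues. Ovaries averaged 153 for inhbab1 (median 4.09) and Visceral Fat 798 for acvr1ca1 (median 14.2). For mstnb1 the highest mean was 24.5, in Spleen (median 11.4). For inhab2, inhbab1 and mstnb1 0 of the 6 gut samples were above the limit set by the negative controls, and for inhab1 and acvr1ca1 only 1 was, so the sizes of these differences were not measurable. The calls of inhbab1 and mstnb1 were lost in 3 of 19 alternatives each, and that of inhab1 in 2 of 20. The activin beta B chain gene inhbba1 had 4 of the 6 gut samples above the limit. It differed by -2.17 ± 0.45 (SE, edgeR adjusted p = 5.8e-05), between -2.78 and -0.57 over its 20 alternatives. Its highest means among the 14 tissues were 164 in Bulbus Arteriosus and 117 in Heart. By edgeR 8 of the 15 ligand genes were called lower, a share close to the 46.9% of all genes. With scaling by all pathway genes or by DESeq2 size factors 2 ligand genes were called higher, and 1 with tbp alone or TMM. All 7 common Smads were called lower under the main scaling, against 4 with scaling by all pathway genes and 0 with the positive controls. Type II receptors had 0 of 7 called under the main scaling, against 3 higher with pathway scaling and 4 lower with actb alone, so no direction is given for them.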

How the data were processed

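The authors deposited a table of raw NanoString counts, whole numbers per probe and sample, and a table of normalised signal with 1 value per gene and tissue. The steps behind that deposited signal are not given in the sources used here. Its values equalled the geometric mean count of a segment times 0.710 in Distal Intestine and 0.536 in Pyloric Caeca for 42 of the 49 genes (within 2%). No count was below 1. Gene identity, chromosome and probe targets come from the authors' lists, and 49 of 49 gene identifiers were found in RefSeq. The members and gene lists were chosen with earlier results of these data known.

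Counts were tested with edgeR 4.0.16 (quasi-likelihood) in R 4.3.3, with 1 coefficient per tissue over the 70 samples and offsets from the 3 reference genes. Standard errors are the log2 difference divided by the square root of the F statistic. Copy ratios were tested with limma 3.58.1. All p-values are two-sided and adjusted by Benjamini-Hochberg over 49 genes or 21 pairs, with a threshold of 0.05. The procedure was also run on counts simulated with the reference factors and spread of these data. Such counts cannot test the choice of scaling. Replicates of a segment differed by more than counting noise. Deviations of samples sharing a replicate number correlated at -0.13, -0.24 and 0.35, so the numbers were not taken as pairing.

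The text names genes past the threshold between segments (mean count of at least 20), the highest gene of each list, the 5 smallest differences (mean count of at least 50), the called duplicate pairs, and up to 6 genes per direction in gut against other tissues. The genes bambia2, mstna1, inhbcb1, acvr2ab1, acvr1aa1, acvr1aa2, smad4aa1, smad4ab2 and smad4bb2 were named after their values were seen.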

Additional observations from a re-analysis of the deposited data

How the results depend on the processing

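Between the segments 3 genes were called. The count was 8 with scaling by all pathway genes, by TMM and by DESeq2 size factors, 9 by ef1a alone, 5 by ef1a with tbp, 5 with a minimum mean count of 20, 5 by the DESeq2 Wald test and 8 when only the 6 samples were fitted, and it ran between 2 and 3 when 1 replicate was left out. Both acvr1ab copies were among the called genes each time, and gdf11b1 and acvr1ca2 were added under each of these 8 settings with a higher count. With the negative controls subtracted the count was 4, with acvr1ca2 but not gdf11b1 added. In the 48 samples without skeletal muscle it was 4, with gdf11b1 but not acvr1ca2 added. With only the 6 samples the added genes were acvr1ca2, bambia2, gdf11b1, inhbcb1 and mstna1. A fit with the replicate number as a block called the same 8 genes, but whether the numbers pair the samples is not known. In gut against other tissues, 26 genes were called, against 11 with scaling by the positive controls and 15 with the negative controls subtracted (25 to 29 with 1 replicate left out). Of the duplicate pairs 3 were called, against 1 with the negative controls subtracted, 1 with only the 6 samples and 1 with the replicate block (1 to 3 with 1 replicate left out, the lowest without Pyloric Caeca replicate 1). Over the 8 other scalings the sign turned in at least 1 for 17 of the 49 genes, none of them called between the segments. Among the genes whose differences were followed through all alternatives, it turned for 8. For acvr1ba2 the difference became 0.39 by ef1a alone, 0.047 by ef1a with tbp, 0.021, 0.036 and 0.0050 by limma with 10, 1 and 50 added, and 0.030 with the replicate block. For acvr1bb2 it was 0.38 by ef1a alone, 0.027, 0.032 and 0.0098 by limma with 10, 1 and 50 added, and 0.027 with the replicate block. For acvr2ab2 it was 0.28 and for smad6a1 0.10 by ef1a alone. For smad2a2 it was -0.16 with pathway scaling and with DESeq2 size factors, -0.12 by tbp, -0.27 by the positive controls and -0.078 by TMM. With 1 replicate left out, the difference ran between -0.21 and 0.20 for acvr1ba2, -0.37 and 0.17 for acvr1bb2, -0.24 and 0.83 for acvr1ca1, -0.50 and 0.10 for acvr2ab2, and -0.52 and 0.033 for smad6a1. It ran between -0.85 and 0.30 for gdf11b2 and between -2.21 and 0.27 for inhbcb2, positive only without Pyloric Caeca replicate 1. The causes were not tested. Over the other values, 533 kept their direction and side of the threshold, 34 lost the call and 23 gained one. In the authors' deposited table, an alternative added after seeing the data, 48 of 49 differences had the same sign, with -2.65 for acvr1ab2, -2.07 for acvr1ab1, 2.44 for gdf11b1 and 1.77 for bambia1. With 3 samples a segment and many ligand counts near the negative controls, differences of such genes were not measurable here.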
